A study of Mus musculus with 6 samples.

Results

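Zfp genes are the mouse genes named by number as zinc finger proteins, and the ones described here are those that the arrays detected in RAW264.7 cells, a mouse macrophage line. A probe was a member if its annotated gene name was Zfp followed by digits alone and its spots were well above background in all 6 deposited scanner files. Zfp36, the mRNA decay factor, was left out by rule. The rule took 340 of 512 probes with such a name, for 249 of 335 genes, out of 55681 probes on the array. The members were thus chosen by measured values, namely detection on every array, and not by the difference between groups.

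Cells of the AEPS group received 50 µg/ml of AEPS, a polysaccharide extracted from Actinidia eriantha roots, for 4 h, and cells of the control group were kept in DMEM medium for the same time. RAW264.7 is a single established line, so the samples carry no difference in genotype. The labels list 3 samples per group, hybridised to 1-colour Agilent arrays. Within each group 2 of the 3 scanner files held the same values and were used once, leaving 2 distinct arrays per group. Each of 2 slides held 1 AEPS and 1 control array, and precision is limited by this number of arrays. Whether cultures were separate is not given in the labels, and the spread behind each p-value may be technical.

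The share of spots well above background was 56.7% and 55.4% on the AEPS arrays and 58.7% and 55.4% on the control arrays. The signal at the 75th percentile, by which each array was scaled, was 575 and 488 units on the AEPS arrays and 401 and 287 units on the control arrays. Of 10 macrophage markers 9 were detected on every array, the exception being Mrc1, which was detected on none. Their summed signal was 590753 to 596553 units on AEPS arrays and 460010 to 534217 units on control arrays. All marker values of this paragraph are signals before scaling by the 75th percentile, which was itself higher on the AEPS arrays. Their direction may therefore differ from that of scaled values. Among markers of other cells, 3 of 6 for T cells, 2 of 5 for B cells, 1 of 5 for fibroblasts and 0 of 4 for epithelium were detected on every array. The T cell sum, carried mainly by Cd4 and Cd3e, was 9232 to 14461 units with AEPS and 8273 to 13672 units in controls. The B cell sum was 433 to 649 units with AEPS and 202 to 304 units in controls, which did not overlap. Its marker Cd79b gave 255 and 225 units with AEPS and 28.5 and 22.9 units in controls, while the B cell marker Ms4a1 was detected on no array. The fibroblast sum was 84.8 to 253 units with AEPS and 102 to 226 in controls, and the epithelial sum 20.9 to 66.5 and 16.6 to 39.1. The part of other cell types and states in the differences below was not tested, and in bulk RNA fewer cells of a type and less RNA per cell cannot be told apart.

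Most Zfp proteins carry C2H2 zinc fingers, small folds held by a zinc ion that read DNA letters in a row, so that a string of fingers sets the sequence a protein binds. Many also carry a KRAB domain, which recruits Trim28 and with it the histone methyltransferase Setdb1, and so lays down silent chromatin, above all at retroelements. The KRAB genes multiplied by tandem duplication and lie in clusters of close relatives. The prefix is a naming habit rather than a family, and it also covers promoter-binding activators, corepressor partners, RNA-binding proteins and ubiquitin ligases.

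The detected Zfp probes changed little as a group and in both directions. Their median log2 change, AEPS minus control, was 0.09, with the quartiles at -0.27 and 0.48 and extremes of -1.72 and 1.69. The median over all 27825 probes well above background on every array was -0.15. Changes lay above 0 for 195 member probes and below 0 for 145. That is 57.4% above 0 among the members, beside 38.9% among all detected probes. A log2 change within 0.5 of 0 was seen for 207 member probes, or 60.9%, beside 64.8% of all detected probes. A change over 1 was seen for 14 members (4.12%, beside 4.20% of all) and under -1 for 11 (3.24%, beside 4.46% of all). The extremes of all detected probes, -3.80 and 8.34, lay far outside the range of the Zfp genes, which are far fewer probes.

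The position of 0 depends on how the arrays are scaled, but the offset of the members from all detected probes depended on it less. The members' median lay 0.23 above that of all detected probes after 75th-percentile scaling. The offset was 0.19 after quantile normalization, 0.23 after spike-in scaling, 0.17 after normexp background correction and 0.18 in the authors' deposited table. The members' own median was 0.69 with spike-in scaling, where that of all probes was 0.45, and -0.04 with normexp, where that of all probes was -0.21. A log2 change of a single gene is therefore a value relative to its array's 75th percentile.

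**Figure D1:**
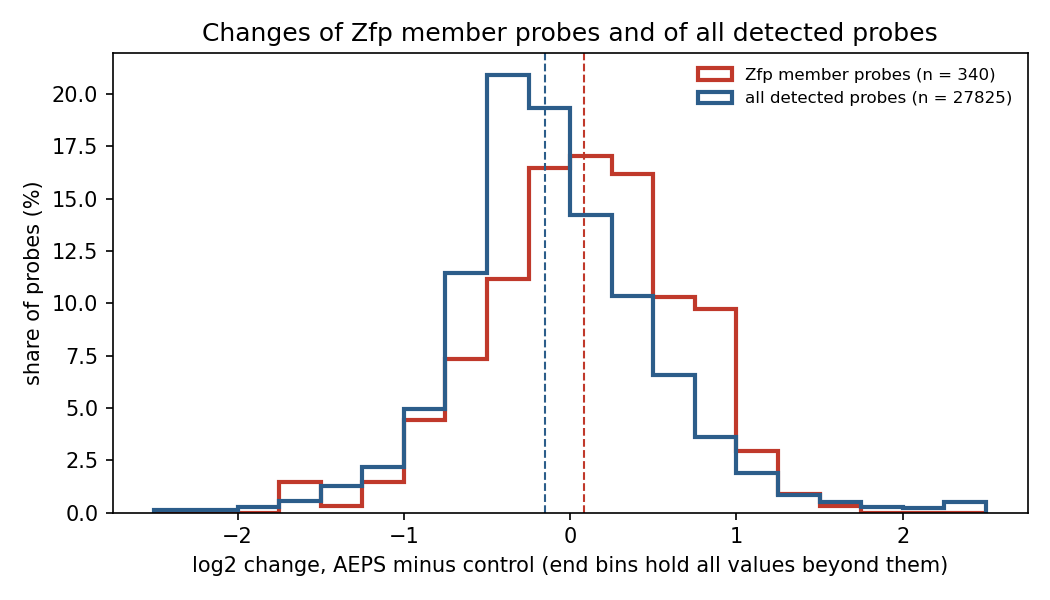
Share of probes (y axis, %) by log2 change, AEPS minus control (x axis), for the 340 Zfp member probes and for the 27825 probes well above background on every array; dashed lines mark the medians, 0.09 and -0.15. The member curve lies to the right of the curve of all detected probes near 0. The end bins hold all values beyond them, so the length of the tails is not drawn.

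By limma with Benjamini-Hochberg adjustment over 30368 tested probes, 30 of 340 member probes passed an adjusted p of 0.05, which is 8.82%, beside 8.68% of all detected probes. Of these, 16 were higher with AEPS, where 5.13% of all detected probes were, and 14 were lower, where 3.54% were. In this fit the share called among the Zfp probes was near the background. Taking the brightest member probe of each gene, 13 genes rose and 11 fell out of 249. With the slide as a replicate block, 83 member probes were higher and 49 lower, beside 15.6% and 18.2% of all detected probes, which is 38.8% of the members called and 33.8% of all. In the authors' deposited table, which holds 3 samples per group, 95 were higher and 60 lower, beside 18.8% and 17.1% of all detected probes, and with a block 141 and 78, beside 26.2% and 27.0%. These are 45.6% of the members and 35.8% of all called without a block, and 64.4% and 53.2% with it. Spike-in scaling gave 108 higher and 3 lower, beside 20% and 0.564% of all, so that 32.6% of the members and 20.6% of all were called. Normexp gave 25 and 32, beside 8.82% and 10.1% of all, and quantile normalization 19 and 17, beside 6.91% and 5.0%. The members' share was 16.8% with normexp and 10.6% with quantile normalization, below the 19.0% and 11.9% of all. The share called thus lay above that of all probes in 4 settings and below it in 2, and these differences were not tested. Leaving out any 1 of the 4 arrays left 0 to 2 member probes higher and 0 to 4 lower. Zfp324, Zfp362, Zfp41 and Zfp503 still passed when either AEPS array was left out, and none of the 24 called genes passed when either control array was. The log2 changes of these 24 genes were then 0.78 to 1.22 times those from all 4 arrays.

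The steepest falls were about 3-fold and belonged to genes with no shared cluster. Values below are log2 of signal over the array's 75th percentile, and ± is limma's moderated SE with 2 distinct arrays per group. Zfp324 (probe at chr7:13559087-13559146, mm9) stood at -3.68 and -3.83 with AEPS and at -1.99 and -2.07 in controls. It fell by 1.72 ± 0.14 (3.30-fold, adjusted p = 0.0199). The AEPS and control arrays did not overlap for this gene, which calling it on these same arrays largely fixes. The difference was of like size on both slides.

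Zfp352 (chr4:89892270-89892329), known from the early mouse embryo around the onset of zygotic transcription, stood at 1.098 and 1.19 with AEPS and at 2.47 and 3.23 in controls. It fell by 1.71 ± 0.30 (adjusted p = 0.0494). The control arrays lay apart from each other here more than for any other called gene in the plot of called genes. Zfp41 (chr15:75455531-75455590) stood at -0.69 and -0.48 with AEPS and at 0.99 and 1.08 in controls, and fell by 1.62 ± 0.15 (adjusted p = 0.0222).

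Zfp503 (Nolz1), a repressor of the NET family best known from development of the striatum, fell on both of its probes. The brighter probe (chr14:22803926-22803985) stood at -2.61 and -2.33 with AEPS and at -0.93 and -0.88 in controls, a fall of 1.56 ± 0.16 (adjusted p = 0.0255). The dimmer probe fell by 1.26 ± 0.17 (adjusted p = 0.036). Zfp362 (chr4:128450332-128450391), a close relative of the promoter factor Zfp384, stood at -0.53 on both AEPS arrays and at 0.92 and 1.11 in controls. It fell by 1.54 ± 0.14 (adjusted p = 0.0227), whereas Zfp384 itself differed by -0.12 ± 0.15 (adjusted p = 0.60); the difference between these genes was not tested.

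The other falls were near or below 2-fold. Zfp710 fell by 1.14 ± 0.13, standing at 5.42 on both AEPS arrays and at 6.496 and 6.63 in controls (adjusted p = 0.0296). Zfp219, a repressor that also partners Sox9 in cartilage, fell by 1.14 ± 0.13 (adjusted p = 0.0293). Zfp161, now Zbtb14, described as a repressor of the Myc promoter, fell by 1.02 ± 0.14 (adjusted p = 0.0375). Zfp652, whose human counterpart acts with the corepressor CBFA2T3, fell on both probes, by 0.90 and 0.88. Zfp692 fell by 0.87 ± 0.14 and Zfp30, a KRAB gene that mouse lung genetics ties to the neutrophil chemokine Cxcl1, by 0.86 ± 0.14. Zfp30 had a mean signal of 28.7 units, among the 3 dimmest member probes. It failed in the authors' deposited table (adjusted p = 0.0637).

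The rises were smaller than the steepest falls. Zfp317 (chr9:19453464-19453523) stood at -1.54 and -1.47 with AEPS and at -2.83 and -2.70 in controls, and rose by 1.26 ± 0.14 (2.40-fold, adjusted p = 0.0267). Zfp719 (chr7:50848159-50848218) stood at -1.18 and -0.98 with AEPS and at -2.36 and -2.22 in controls, and rose by 1.21 ± 0.15 (adjusted p = 0.0323). Both genes had AEPS arrays wholly above the control arrays, which again follows largely from their being called on them. Zfp867 (chr11:59275304-59275363) rose by 1.20 ± 0.14, Zfp11 by 1.06 ± 0.18 and Zfp948 by 1.01 ± 0.14.

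Among rises with a known role, Zfp143, an activator bound at many promoters and chromatin loop anchors, stood at -0.30 and -0.27 with AEPS and at -1.32 and -1.11 in controls. It rose by 0.93 ± 0.15 (adjusted p = 0.0429). Zfp445, a KRAB protein that guards imprinted regions, stood at -0.88 and -0.67 with AEPS and at -1.83 and -1.62 in controls, and rose by 0.95 ± 0.16 (adjusted p = 0.0477). Zfp828, now Champ1, which helps to attach kinetochores to spindle microtubules, rose by 0.88 ± 0.13 (adjusted p = 0.0408). The remaining genes that rose were Zfp930 by 0.88, Zfp120 by 0.83, Zfp101 by 0.83, Zfp442 by 0.78 and Zfp936 by 0.75.

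Another 4 genes passed on a probe that was not their brightest, and were picked out after their values were seen. Zfp330, a nucleolar protein, rose by 1.39 ± 0.16 on a probe at chr8:85290616-85291114 (2.73 and 2.93 with AEPS, 1.35 and 1.53 in controls, adjusted p = 0.0288). Its brightest probe, at chr8:85287880-85287939, differed by 0.68 ± 0.13 and missed the threshold (adjusted p = 0.0541). Zfp142 rose by 1.04 and Zfp191, now Zfp24, which is needed for myelin formation, by 0.89, while their brightest probes differed by 0.55 and 0.54 without passing. Zfp61 fell by 1.21 on a probe of 42.0 units and differed by -0.76 on its brightest probe (adjusted p = 0.0646). In each of these 4 genes both probes differed in the same direction.

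The largest differences were not all called. Zfp420 had the highest log2 change of all members, 1.69 ± 0.37, with -1.35 and -1.28 on AEPS arrays and -2.52 and -3.49 in controls (adjusted p = 0.066). The groups did not overlap, but the control arrays lay 0.97 apart, and the gene passed in the authors' deposited table (adjusted p = 0.002). Zfp74 differed by 1.49 ± 0.44, with AEPS arrays at -2.04 and -0.85 (adjusted p = 0.11).

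**Figure D2:**
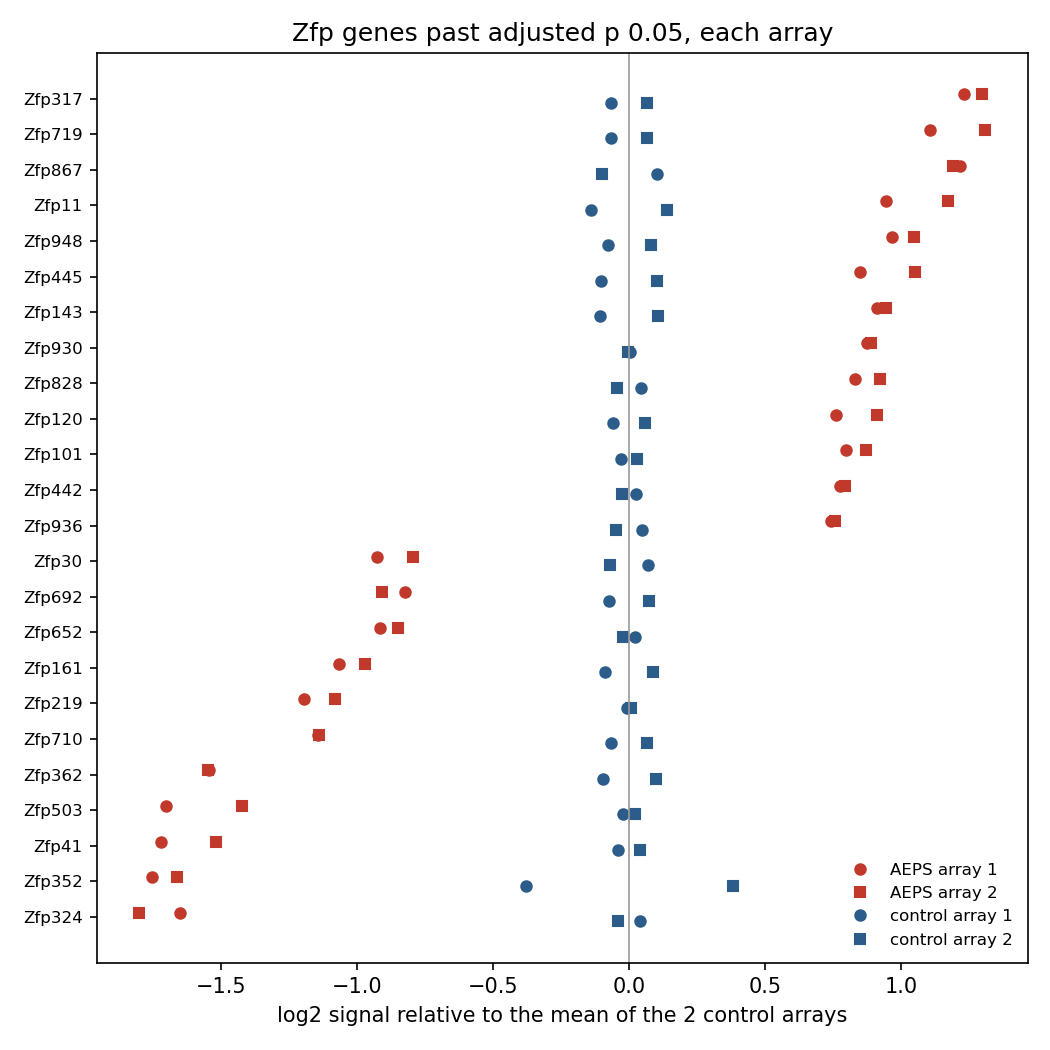
log2 signal of each array relative to the mean of the 2 control arrays (x axis) for the 24 Zfp genes past an adjusted p of 0.05 on their brightest probe (y axis), with AEPS arrays in red and control arrays in blue. The AEPS arrays of every gene lie on one side of its control arrays, which the choice of genes by these same arrays largely fixes. Zfp352 has the widest spread between controls.

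The rises and falls differed in median brightness but overlapped in range. The 16 probes that rose had a median signal of 186 units (82.1 to 2342) and 11 of them lay under 300 units, while the 14 that fell had a median of 477 units (28.7 to 32951) and 6 lay under 300. This difference was not tested. After normexp background correction all 30 kept their direction. With it 11 of the 16 rises and 14 of the 14 falls still passed. Zfp101, Zfp948, Zfp11, Zfp867 and the called probe of Zfp142 no longer passed. With spike-in scaling all 30 also kept their direction, 16 of 16 rises passed, and of the falls only the brightest probes of Zfp352, Zfp41 and Zfp503 did. The falls of the other genes hold relative to the 75th percentile and were not called relative to the spike-ins.

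The replicate 3 columns of the authors' deposited table matched no scanner file, so they give values that neither the detection rule nor the scanner fit used. In them all 30 called member probes differed in the same direction as on the scanner arrays, as 99.7% of the 2414 called probes of the whole array did. Of all 340 member probes, 297 (87.4%) kept their sign, beside 83.6% of all detected probes. Across the 340 member probes the 2 sets of changes had a Pearson correlation of 0.92 and a Spearman correlation of 0.91, beside 0.82 and 0.80 across all detected probes. The points share each probe's sequence and target, and probes are not independent replicates. Zfp324 differed by -1.15, Zfp352 by -1.60, Zfp317 by 1.06 and Zfp420 by 1.89 in these columns.

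**Figure D3:**
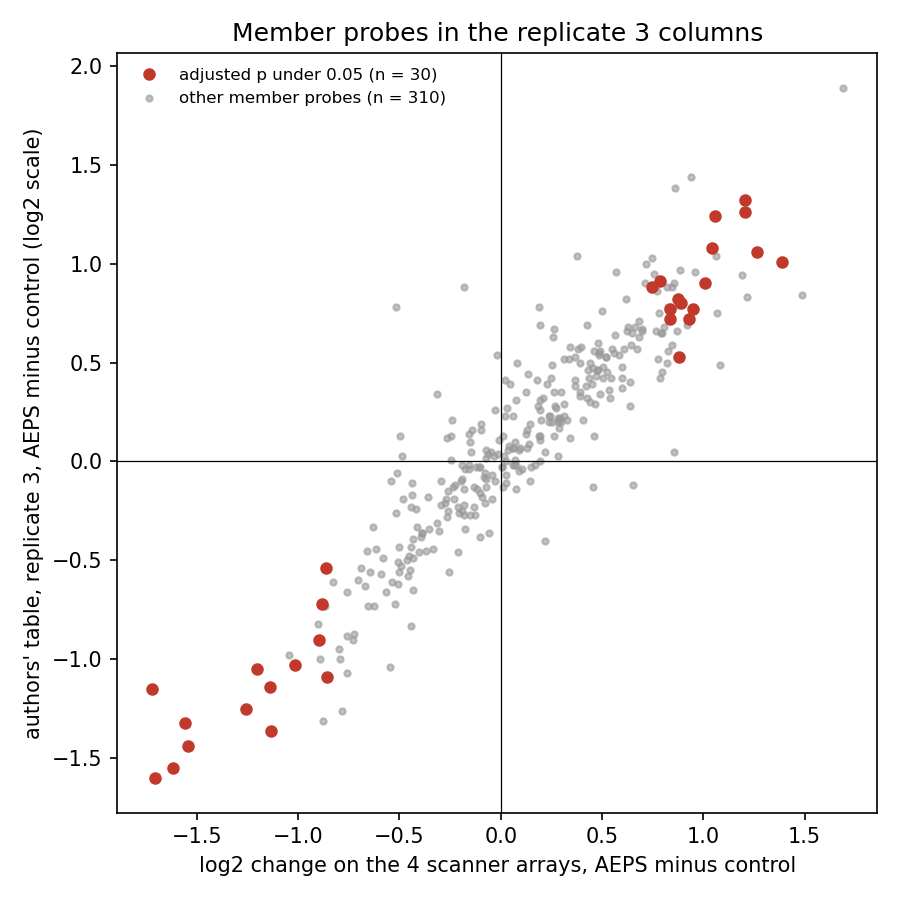
AEPS minus control in the replicate 3 columns of the authors' deposited table (y axis, log2 scale) against the log2 change on the 4 scanner arrays (x axis), 1 point per member probe. All 30 called probes (red) lie in the lower left or upper right part of the plot, and Zfp420 is the uncalled point farthest to the upper right.

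Promoter-binding activators and GC-box factors went both ways. All 9 listed genes were detected, and their median was 0.01. Of them 1 rose and 1 fell, beside 5.13% and 3.54% of all detected probes. Zfp143 rose and Zfp219 fell, as given above. Zfp281, which binds GC-rich boxes and is known from pluripotent cells, stood at 1.13 and 1.26 with AEPS and at 0.57 and 0.62 in controls, a difference of 0.60 ± 0.13 that missed the threshold (adjusted p = 0.0683). Zfp263 differed by 0.83 ± 0.20 (adjusted p = 0.0789) and Zfp740 by -0.76 ± 0.20 (adjusted p = 0.0928). Zfp148, a GC-box binder related to Zfp281, differed by -0.13, Zfp335 by 0.22 and Zfp410, an activator of the NuRD subunit Chd4, by 0.01. With the slide as a replicate block 3 of the 9 were higher and 1 lower, beside 15.6% and 18.2% of all detected probes.

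Corepressor and chromatin partners lay mostly below 0 on their brightest probes with 75th-percentile scaling, and 7 of 8 lay above 0 with spike-in scaling. Of 12 listed genes 8 were detected, 1 of them, Zfp503, fell, and 7 of the 8 lay below 0 with a median of -0.33, where 38.9% of all detected probes lay above 0. Zfp703, the relative of Zfp503 in the NET family, stood at 2.85 and 2.96 with AEPS and at 3.22 and 3.36 in controls, a difference of -0.39 ± 0.14 (adjusted p = 0.15). It was lower with the slide as a replicate block (adjusted p = 0.0472). Zfp217, a partner of the CoREST and CtBP corepressors, differed by -0.39 and Zfp592 and Zfp687, which form a complex with the histone reader Zmynd8, by -0.39 and -0.27. Zfp462 differed by -0.26, Zfp609 by -0.15 and Zfp644, a partner of the G9a methyltransferase, by 0.36, the only member of the list above 0. Dimmer probes of Zfp217, Zfp592 and Zfp609 differed by 0.48, 0.22 and 0.08. By the authors' deposited values 5 of the 8 were lower and 1 higher, beside 17.1% and 18.8% of all detected probes.

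RNA-binding and translation-linked members had a median of 0.44 on their brightest probes. None of the 8 detected of 9 listed passed on that probe, while a dimmer probe of Zfp330 rose, as given above. Zfp106, an RNA-binding protein needed in motor neurons, stood at 1.43 and 1.61 with AEPS and at 0.70 and 0.78 in controls, a difference of 0.78 ± 0.14 (adjusted p = 0.0536). Zfp207 (BuGZ), which binds microtubules and the checkpoint protein Bub3, differed by 0.70 ± 0.15 (adjusted p = 0.0643), and the brightest probe of Zfp330 by 0.68. These 3 genes were higher with the slide as a replicate block, as were 15.6% of all detected probes. Zfp598, the ubiquitin ligase that marks collided ribosomes, differed by 0.42 ± 0.13 (adjusted p = 0.12) and Zfp326, a nuclear protein at spliced transcripts, by 0.46 (adjusted p = 0.13). Zfp622, Zfp346, which binds double-stranded RNA, and Zfp259, now Zpr1, differed by -0.05, -0.10 and 0.06. The median of this list was 0.255 in the replicate 3 columns.

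KRAB genes with a known retroelement or imprint target had a median of 0.27 over the 6 detected of 9 listed. Zfp445 rose. Zfp568, which silences a placental promoter of Igf2, stood at 1.09 and 1.14 with AEPS and at 0.48 and 0.46 in controls, a difference of 0.65 ± 0.13 just outside the threshold (adjusted p = 0.0572) and inside it with the slide as a replicate block (adjusted p = 0.0328). Zfp809, which binds the primer site of murine leukaemia virus and related retroelements, differed by 0.41 ± 0.23 (adjusted p = 0.28). Zfp57, a keeper of imprinted methylation, differed by 0.13, Zfp932 by 0.06 and Zfp961 by -0.11. Zfp708, Zfp819 and Zfp459 were no members.

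The silencing machinery that KRAB proteins recruit went both ways. Of 19 listed genes all were tested, with a median of 0.01, 1 that rose and none that fell, beside 5.13% and 3.54% of all detected probes. With the slide as a replicate block 3 were higher and 2 lower, beside 15.6% and 18.2% of all detected probes. By the authors' deposited values without a block, 5 were higher and 3 lower, beside 18.8% and 17.1% of all detected probes. The scaffold Trim28 stood at 5.18 and 5.29 with AEPS and at 5.27 and 5.38 in controls, a difference of -0.09 ± 0.14 (adjusted p = 0.67). Setdb1 differed by -0.03 ± 0.14 (adjusted p = 0.87). Atrx, a chromatin remodeller, rose by 0.86 ± 0.15 (adjusted p = 0.0487) on a dim probe of 58.3 units, and its difference was 0.14 after normexp. Dnmt1, the maintenance DNA methyltransferase, differed by -0.82 ± 0.19 (adjusted p = 0.0748) and was lower with the slide as a replicate block (adjusted p = 0.0318).

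Of the members, 103 genes lay in 14 genomic clusters, taken as runs of at least 4 detected Zfp genes with no gap over 500 kb between probes on mm9. Chromosome 7 held 68 of the 249 genes and chromosome 17 held 28. The median log2 change was 0.17 for genes in clusters and 0.02 for the 146 others. The median was above 0 in 10 clusters and below 0 in 4, but with normexp it was above 0 in 5 and below 0 in 9, and with spike-in scaling above 0 in all 14. Genes of a cluster are close relatives in sequence and no independent replicates, so these are descriptions.

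The cluster with the highest median lay at chr2:149942370-150298290 and held Zfp120, Zfp937, Zfp442 and Zfp345, all above 0, with a median of 0.81. Of these 4 genes 2 were called, beside 8.68% of all detected probes. Zfp442 stood at 2.37 and 2.39 with AEPS and at 1.62 and 1.57 in controls. Zfp120 stood at -1.20 and -1.05 with AEPS and at -2.01 and -1.90 in controls. Zfp345 differed by 0.94 ± 0.17 (adjusted p = 0.0516) and Zfp937 by 0.19 ± 0.14 (adjusted p = 0.38). After normexp the cluster's median was 0.37 and Zfp937 differed by -0.14. In the replicate 3 columns all 4 genes lay above 0, with a median of 0.82. The probes of Zfp442 and Zfp937 share a run of 31 letters, so their signals may not be separate.

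The cluster with the lowest median lay at chr6:47817001-48387937 and held 7 genes, all below 0, with a median of -0.54, where 38.9% of all detected probes lay above 0. None was called without the block and 5 were lower with the slide as a replicate block, beside 18.2% of all detected probes. Zfp398 stood at -1.87 and -1.52 with AEPS and at -0.997 and -0.80 in controls, a difference of -0.79 ± 0.19 (adjusted p = 0.0754). Zfp777 stood at 2.24 and 2.19 with AEPS and at 2.90 and 2.92 in controls, a difference of -0.69 ± 0.13 (adjusted p = 0.0522). Zfp282 differed by -0.67, Zfp212 by -0.54, Zfp467 by -0.50, Zfp956 by -0.41 and Zfp746, a substrate of the ubiquitin ligase parkin, by -0.07. In the replicate 3 columns all 7 lay below 0, with a median of -0.54, and after normexp the median was -0.45. With spike-in scaling the median was 0.06.

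A cluster at chr7:4871046-5005178 had 5 of 6 genes below 0 and a median of -0.40, and all 6 lay below 0 in the replicate 3 columns. The cluster at chr17:21179366-22593639 had 10 of 12 genes above 0 and a median of 0.29. Zfp948 was its called gene, and 5 of its genes were higher with the block, beside 15.6% of all detected probes. After normexp its median was -0.003, and 5 of 12 genes lay above 0. The cluster of most genes, 13 at chr7:30562247-30946346, spread from -0.88 to 1.69 and held Zfp420, Zfp74 and Zfp30.

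**Figure D4:**
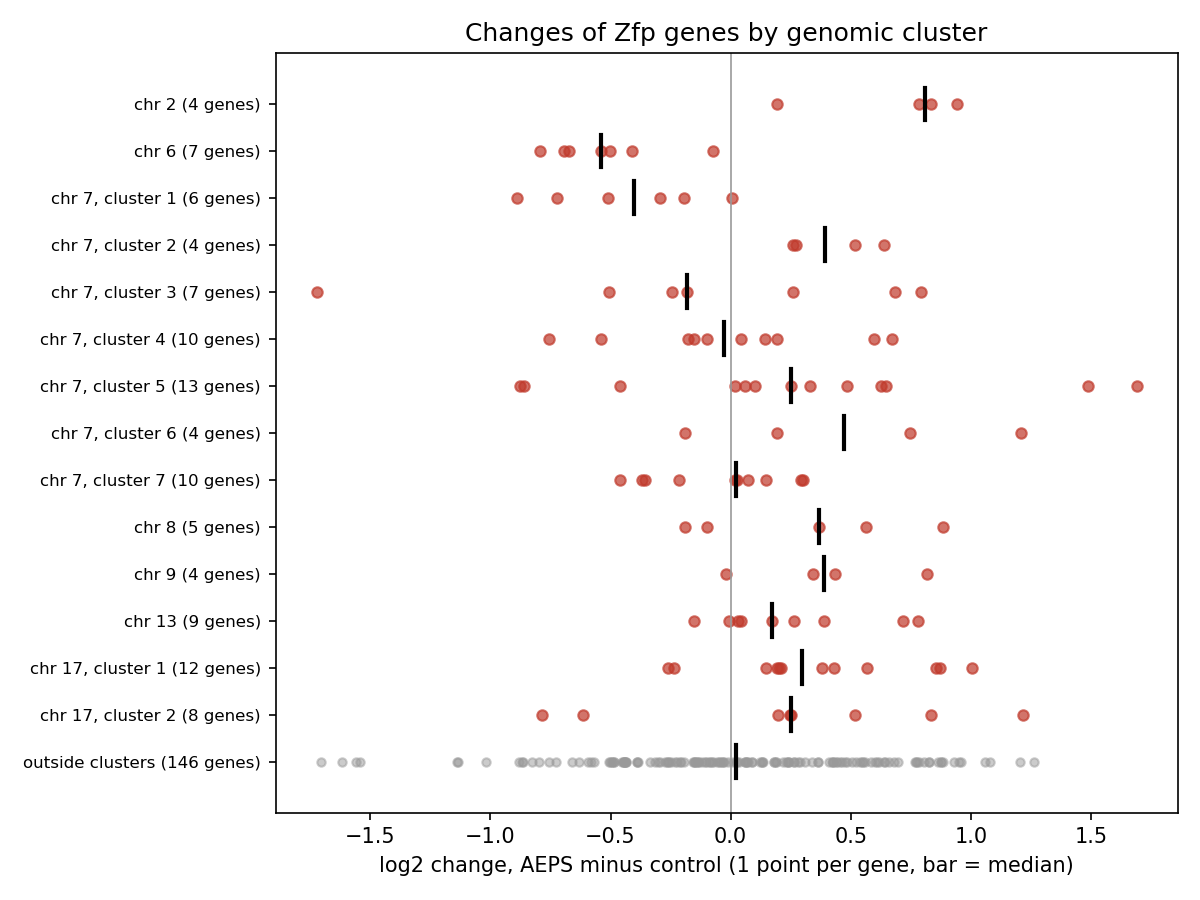
log2 change, AEPS minus control (x axis), of each member gene by genomic cluster (y axis, clusters of a chromosome numbered along it), with the median as a bar. The chromosome 2 cluster lies wholly above 0 (median 0.81), the chromosome 6 cluster wholly below 0 (median -0.54), and the 146 genes outside clusters spread around 0.02.

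The letters before the start sites of both clusters are shown since the clusters moved apart and their promoters differ. They are the 250 bases upstream of the RefSeq start on GRCm38.p6, another build than the array's, and 210 of 249 member genes had an entry. Capitals mark CCAAT and GGGCGG on either strand. CCAAT and GGGCGG do not overlap each other, but copies of GGGCGG can. The chromosome 2 genes follow, and all 4 hold CCAAT and none holds GGGCGG.
Zfp120 (chr2:150136679-150136928, minus strand): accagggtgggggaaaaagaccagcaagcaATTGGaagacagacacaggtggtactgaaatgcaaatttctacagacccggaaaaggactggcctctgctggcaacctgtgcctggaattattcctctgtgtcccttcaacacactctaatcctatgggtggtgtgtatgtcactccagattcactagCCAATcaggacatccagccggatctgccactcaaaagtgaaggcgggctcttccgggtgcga
Zfp937 (chr2:150217849-150218098, plus strand): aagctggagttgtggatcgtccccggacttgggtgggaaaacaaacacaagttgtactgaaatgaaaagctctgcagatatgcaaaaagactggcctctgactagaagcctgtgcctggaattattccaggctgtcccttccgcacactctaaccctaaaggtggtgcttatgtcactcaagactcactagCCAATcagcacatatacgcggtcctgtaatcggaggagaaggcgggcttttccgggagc
Zfp442 (chr2:150451502-150451751, minus strand): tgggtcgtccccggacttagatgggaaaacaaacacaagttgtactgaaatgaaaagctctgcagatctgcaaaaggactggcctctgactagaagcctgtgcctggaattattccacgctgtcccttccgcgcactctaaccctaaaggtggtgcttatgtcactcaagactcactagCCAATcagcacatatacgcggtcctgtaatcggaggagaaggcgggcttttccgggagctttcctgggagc
Zfp345 (chr2:150485064-150485313, minus strand): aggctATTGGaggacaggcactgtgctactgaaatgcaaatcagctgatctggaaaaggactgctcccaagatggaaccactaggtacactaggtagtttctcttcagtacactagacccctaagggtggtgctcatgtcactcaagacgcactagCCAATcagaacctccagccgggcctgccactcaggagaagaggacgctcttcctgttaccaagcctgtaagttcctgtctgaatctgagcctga
The 4 promoters share the run cactagCCAATcag, with its CCAAT 59 to 94 bases before the start. This run of 14 letters occurs, on either strand, in 13 of 27025 promoters, these 4 included. It was taken as the longest run these 4 share, so the count is no independent support. Compared without gaps, the promoters of Zfp442 and Zfp937 were 97.1% identical over 238 bases, and the other pairs 47.1% to 53.9%.

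On chromosome 6, 5 of 7 promoters hold GGGCGG and 2 hold CCAAT, and the median G and C content was 66.8%, beside 51.4% for the chromosome 2 cluster. Zfp282, Zfp777 and Zfp746 are shown as examples with GGGCGG. Zfp777 holds 3 copies, and those in its stretch GGGCGGGCGG overlap.
Zfp282 (chr6:47877305-47877554, plus strand): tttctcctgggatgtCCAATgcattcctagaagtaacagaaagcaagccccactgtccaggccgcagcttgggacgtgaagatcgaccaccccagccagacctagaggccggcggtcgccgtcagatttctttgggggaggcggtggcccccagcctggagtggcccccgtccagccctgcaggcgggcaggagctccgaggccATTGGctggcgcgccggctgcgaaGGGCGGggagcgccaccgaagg
Zfp777 (chr6:48047795-48048044, minus strand): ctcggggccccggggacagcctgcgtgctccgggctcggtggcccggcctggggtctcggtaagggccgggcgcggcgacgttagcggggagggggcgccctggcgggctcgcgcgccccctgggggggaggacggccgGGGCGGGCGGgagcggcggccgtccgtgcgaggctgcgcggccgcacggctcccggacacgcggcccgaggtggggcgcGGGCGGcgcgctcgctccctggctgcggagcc
Zfp746 (chr6:48086594-48086843, minus strand): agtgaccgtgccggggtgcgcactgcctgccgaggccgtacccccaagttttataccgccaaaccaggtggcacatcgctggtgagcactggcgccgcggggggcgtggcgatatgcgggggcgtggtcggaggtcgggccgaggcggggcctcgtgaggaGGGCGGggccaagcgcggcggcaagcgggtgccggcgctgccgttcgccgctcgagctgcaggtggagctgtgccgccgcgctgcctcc
Whether the change goes with these letters across the other Zfp promoters was not tested, and some further clusters are given as examples. In the second chromosome 17 cluster, at chr17:32910629-33768635 with a median of 0.25, all 8 promoters hold CCAAT and 1 holds GGGCGG. In the cluster at chr17:21179366-22593639, which also lay mostly above 0, 8 of 11 hold GGGCGG and 3 hold CCAAT. In the cluster at chr7:7067571-7154846, with a median of 0.39, all 4 hold CCAAT and 2 hold GGGCGG. In the cluster at chr7:4871046-5005178, with a median of -0.40, 2 of 4 hold GGGCGG and 1 holds CCAAT. The cluster at chr9:20242773-20398425 had the same counts, 2 and 1 of 4, with a median of 0.39. In the cluster at chr13:67355915-67927746, with a median of 0.17, 1 of 8 holds CCAAT and 0 hold GGGCGG. Over 210 genes the Spearman correlation of log2 change with G and C content of the promoter was -0.20. These letters are descriptions of the windows and not sites.

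Set against all 27025 promoters of the table, those of the detected Zfp genes held more of several motifs. The 27025 were not limited to genes detected here, so an excess shared by detected genes in general cannot be told apart. GGGCGG was in 44.3% of them, beside 32.9% of all promoters, CCAAT in 44.3% beside 34.5%, and CCGGAAG, a sequence read by ETS factors, in 16.7% beside 7.05%. The NF-kB site (the kappaB consensus) was in 3.81%, beside 3.75% of all. The AP-1 sequence TGANTCA was in 4.29%, beside 6.87%. Both strands were searched for each. The median number of CG pairs was 11 per promoter, beside 6. Among the 9 promoters of genes that fell and 11 of genes that rose, GGGCGG was in 0 and 3, CCAAT in 5 and 6, and the kappaB consensus in none of either.

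The change also went with the base composition of the probe. Over the 340 member probes, G and C content of the 60-base probe and log2 change had a Pearson correlation of -0.33, beside -0.27 over all detected probes. Member probes with 40% G and C or less numbered 164 and had a median change of 0.29, beside 0.07 for all detected probes of that class. The 119 probes over 40 to 45% had a median of 0.06, beside -0.15. The 30 probes over 45 to 55% had a median of -0.14, beside -0.31, and the 27 probes over 55% had one of -0.57, beside -0.37. The first 3 classes of members thus lay above all detected probes of like composition and the last lay below. After normexp the member medians of the same classes, low to high, were 0.03, -0.03, -0.17 and -0.49. Those of all detected probes were then -0.003, -0.21, -0.33 and -0.36. The part of base composition in the difference between clusters was not tested, and the median probe G and C content was 45% in the chromosome 2 cluster and 43.3% in the chromosome 6 cluster. These clusters differed in brightness, with a median signal of 121 units on chromosome 2 and 1681 units on chromosome 6. The part of brightness was not tested either.

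Brightness moved with the change as well. The 122 member probes of at most 128 signal units had a median change of 0.26, where all detected probes of that class had -0.25. The 141 between 128 and 1024 units had 0.07, beside -0.12, and the 77 brighter ones had -0.07, beside -0.08. After normexp the members' medians in these classes were -0.07, -0.001 and -0.007, beside -0.37, -0.15 and -0.02 for all detected probes. The members' excess over all detected probes was therefore confined to probes of at most 1024 units with 75th-percentile scaling.

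**Figure D5:**
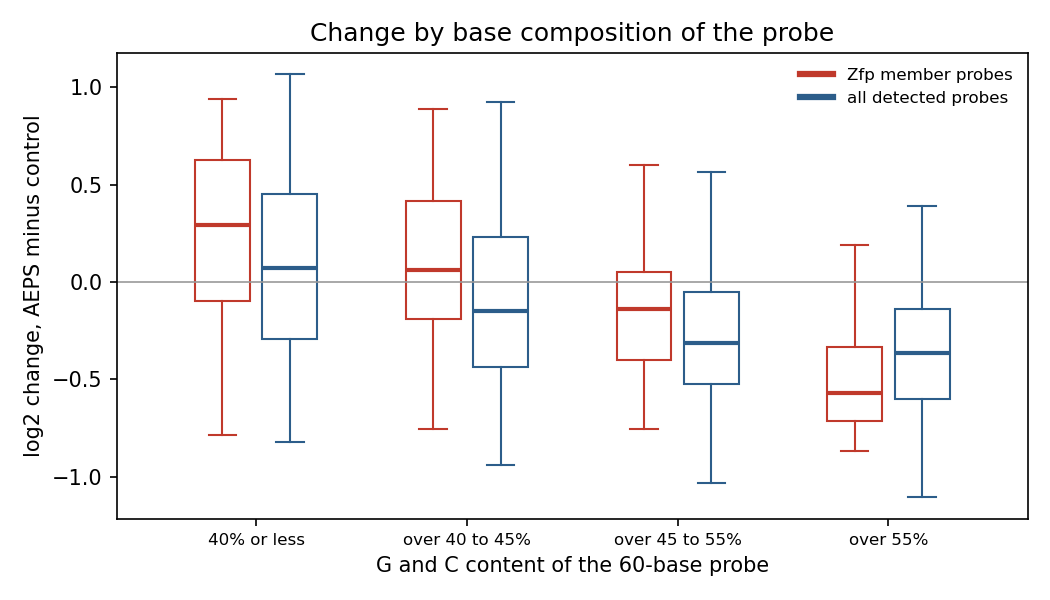
log2 change, AEPS minus control (y axis), by G and C content of the probe (x axis) for Zfp member probes (red) and all detected probes (blue); boxes span the quartiles, lines are medians and whiskers reach the 5th and 95th percentiles. The member medians step down across the classes, 0.29, 0.06, -0.14 and -0.57.

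Of 81 genes with more than 1 member probe, 54 had all probes on the same side of 0, and the median gap between the lowest and highest probe was 0.36. In 6 genes probes differed by more than 0.3 in opposite directions, namely Zfp790, Zfp936, Zfp941, Zfp28, Zfp217 and Zfp523. Zfp790 had the widest gap, and its 60-base probes are shown because they read stretches of the gene 1265 bases apart on mm9.
Zfp790, lower probe (chr7:30614327-30614386, plus strand): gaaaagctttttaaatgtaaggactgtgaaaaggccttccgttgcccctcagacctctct
Zfp790, higher probe (chr7:30615592-30615650, plus strand): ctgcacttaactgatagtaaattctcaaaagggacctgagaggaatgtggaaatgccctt
The first differed by -0.88 ± 0.28 (adjusted p = 0.117) and the second by 1.19 ± 0.25 (adjusted p = 0.0643). Both passed in the authors' deposited table, with adjusted p of 0.0368 and 0.0309, and the replicate 3 columns gave -1.31 and 0.94. The genes of this paragraph other than Zfp936 and Zfp217 were picked out after their values were seen.

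Zfp936 is the gene with a called probe among these 6. Its called probe rose by 0.75 ± 0.13 and its other probe differed by -0.52 ± 0.59 (adjusted p = 0.572).
Zfp936, called probe (chr7:50445732-50445791, plus strand): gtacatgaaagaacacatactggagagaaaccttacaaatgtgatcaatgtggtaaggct
Zfp936, other probe (chr7:50447417-50447476, plus strand): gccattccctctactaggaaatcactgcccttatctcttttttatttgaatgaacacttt
The called probe shares a run of 29 letters with a probe of Zfp386 and runs of at least 20 letters with 13 probes of other names. In the replicate 3 columns both probes lay above 0, at 0.88 and 0.78. Of the 340 member probes, 25 share a run of at least 20 letters with a probe of another name, Zfp442, Zfp937, Zfp345, Zfp930 and Zfp282 among them, and their signals may include relatives.

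Some Zfp probes just outside the detection rule were bright in a single group. Of 172 Zfp probes outside, 137 were well above background on all arrays of neither group, 22 only in the AEPS group and 13 only in the control group. Of these 35, 2 were higher and 5 lower by the same fit. Their direction is largely fixed by the group in which they were bright, and the size of a difference is not measured where a group is not above background. These probes entered the fit through the group that detected them, so their adjusted p-values are no independent support for a difference. Where a group never detected a probe, the fold is a lower bound for the processed signal alone. The mean of the group that did is set over the dim signal or, if higher, over the weakest detected signal on that array. For each probe given a bound below, the difference after normexp was smaller than the bound.

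Zfp811 was well above background only with AEPS, with 110 and 97.0 signal units there and 3.44 and 2.75 units in controls, and was at least 4.60-fold higher (adjusted p = 0.00715). After normexp its log2 difference was 0.95, which is below that bound, so the bound holds for the processed signal alone. Zfp651 was bright only in controls, with 4.67 and 5.89 units with AEPS and 25.5 and 20.8 units in controls, and was at least 1.82-fold lower (adjusted p = 0.0219), with -0.84 after normexp. A further probe of Zfp467, in the chromosome 6 cluster, was at least 3.46-fold lower (adjusted p = 0.0218) and differed by -0.98 after normexp. The 3 member probes of Zfp467 differed by -0.50 to -0.18 and none was called. Zfp608, detected on 1 of the 2 AEPS arrays, fell by 2.16 ± 0.23 (adjusted p = 0.0263), with -1.14 after normexp.

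Zfp882 was at least 2.28-fold higher without passing (adjusted p = 0.217), with 0.20 after normexp. Zfp91, a ubiquitin ligase of the noncanonical NF-kB kinase NIK, was well above background only with AEPS, with 76.5 and 76.7 units there and 16.9 and 15.05 units in controls. It was at least 3.14-fold higher (adjusted p = 0.0296), but after normexp its difference was 0.31 and did not pass (adjusted p = 0.195). Of the 3 genes listed for ubiquitin and NF-kB, Zfp598 alone was a member.

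At the edge of the rule, the members with the lowest signal on any array were Zfp758 at 15.6 units, Zfp458 at 17.5 and Zfp933 at 17.5. Zfp169 at 35.6, Zfp608 at 25.7 and Zfp69 at 23.3 units failed on the first AEPS array alone.
At the other end, the brightest members were Zfp628 with a mean of 501638 units, Zfp408 with 312467 and Zfp658 with 92075. They differed by -0.51, -0.44 and -0.19, and none passed. Zfp408 differed by -0.10 with quantile normalization and by -0.11 in the authors' deposited table. Its probe shares runs of up to 32 letters with 10 probes of other names, and that of Zfp658 a run of 20 letters with 1. The dimmest were a probe of Zfp161 at 24.6 units, Zfp30 and a second probe of Zfp937 at 28.9 units.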

How the data were processed

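RNA of RAW264.7 cells, 3 AEPS and 3 control samples, was hybridised to 1-colour Agilent arrays. Per the file headers, Agilent Feature Extraction 10.7.1.1 gave each spot an intensity, the processed signal, that was background-subtracted and detrended but not scaled between arrays. The authors' deposited table holds values on a log2 scale with the same distribution in each column; the offset of that scale is unknown. Files of replicates 1 and 2 were identical in each group. The replicate 3 files ranked probes like replicate 2 of the table, whose replicate 3 columns fit no file.

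Control spots and flagged spots were left out and spots of a probe averaged. Processed signals were divided by the 75th percentile of their array and put on a log2 scale. The 30368 probes detected throughout at least 1 group were compared with lmFit and eBayes of limma 3.58.1 (R 4.3.3), two-sided, with Benjamini-Hochberg adjustment over all of them. The fit was tested on simulated data. 1 member probe of Zfp68 lacked a control spot and was fitted on the other arrays. A gene was represented by its brightest member probe.

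Same-numbered samples deviated together: the correlation of deviations was 0.54, 0.34 and 0.39 in the table, against -0.48 to 0.23 for other pairs, and 0.58 by slide. The numbers therefore pair the samples, the slide served as replicate block, and the planned fit has no block.

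Named genes were the called genes with up to 15 largest rises and falls, the role lists, the 3 brightest and dimmest members, opposed probes with a call, and up to 5 genes outside the rule. The members, lists and rules were chosen with earlier results of these data known. Counts by finger number and KRAB or SCAN domain were planned and are not given, as no protein sequences were used here. Probe positions are on mm9, per the file headers, and 234 of 249 genes matched RefSeq names (GRCm38.p6), 9 under a newer symbol. Alternatives were quantile and spike-in scaling, normexp, other filters, 1 probe per gene, the block, the authors' table and leaving out each array.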

Additional observations from a re-analysis of the deposited data

How the results depend on the processing

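Against 16 higher and 14 lower member probes, the counts were 83 and 49 with the replicate block and 108 and 3 with spike-in scaling. Normexp gave 25 and 32. The authors' table gave 95 and 60 without a block, and 141 and 78 with the replicate block. The shares of all detected probes in these settings are given above. A mean-variance trend gave 42 and 32, and 1 probe per gene gave 8 and 8. Restricting the test to probes detected on all arrays gave 34 and 17. For these last 3 settings the shares of all detected probes are not given, so their counts cannot be set against a background. By limma with no filter none passed, although 67 were higher and 36 lower at an unadjusted p of 0.05. The median change of 0.09 was 0.14 with quantile normalization and in the table with or without the replicate block, 0.69 with spike-in scaling, -0.040 with normexp and 0.068 with 1 probe per gene. Leaving out 1 scanner array at a time left 0 to 2 higher, 0 to 4 lower and a median of 0.035 to 0.15, with the lone array of a group assumed to vary like the other group's. Leaving out 1 sample of the table at a time gave 38 to 86 higher, 39 to 54 lower and a median of 0.063 to 0.20. The cause of these shifts was not tested. Some settings fitted fewer arrays, other probes or the authors' table, and the others changed the scaling, the background correction or the model.

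Of the 24 called genes, none reversed under any alternative; the call was lost for 10 with quantile normalization, 8 with spike-in scaling, 8 with 1 probe per gene, 4 with normexp, 1 in the authors' table (Zfp30) and 0 with the replicate block. The reversals were all of genes that were not called. With spike-in scaling they were Zfp148 (0.47), Zfp217 (0.21), Zfp346 (0.50), Zfp384 (0.49), Zfp408 (0.16), Zfp462 (0.35), Zfp592 (0.22), Zfp609 (0.46), Zfp622 (0.55), Zfp628 (0.091), Zfp658 (0.41), Zfp687 (0.33), Zfp703 (0.22) and Zfp961 (0.50). With quantile normalization Zfp384 was 0.0041, Zfp410 -0.043 and Zfp622 0.036, with normexp Zfp622 was 0.030 and Zfp937 -0.14, and in the table with and without the replicate block Zfp410 was -0.063 and Zfp622 0.040. Leaving out 1 array or sample at a time gave ranges that span 0 for Zfp259 (-0.058 to 0.18), Zfp384 (-0.23 to 0.050), Zfp410 (-0.092 to 0.083), Zfp462 (-0.50 to 0.070), Zfp622 (-0.17 to 0.078), Zfp628 (-0.83 to 0.073) and Zfp932 (-0.063 to 0.18). Signal over background limits the dim members: 122 of 340 had at most 128 signal units.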
